A study of Mus musculus with 2 samples.

Results

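Tuft cells are rare chemosensory cells of the gut lining, and 7 genes that mark them were followed on 2 arrays: Dclk1, Trpm5, Alox5ap, Avil, Rgs13, Sh2d6 and Ptgs1. The genes were chosen by name, with earlier results of these data known. For each, the brightest probe set annotated to that gene symbol alone was taken. By this rule 6 of the 7 genes were measured, of 17305 genes in all, and Ptgs1 was not analysed here. Each of the 6 had a single probe set, so none of them has a second measurement on either array. The graft array holds small intestinal epithelium from EGFP-transgenic mice on a C57BL6 background, grown as organoids for 7 days, placed into the colon of C57BL6 recipients and collected 4 weeks later. The colon array holds normal colonic epithelium of a C57BL6 mouse that received no graft. Both epithelia were cut out by laser microdissection, tissue from serial sections of a specimen was combined, and 4.33 ng of total RNA was amplified for each array. The graft and the colon specimen with the best RNA integrity were the ones used, and the promoter of the EGFP transgene and the age and sex of the mice are not stated by the labels. With 1 array per group no difference has a replicate check, so no test was made, and no ungrafted small intestine or organoid culture was analysed here.

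Tuft cells carry a tuft of long apical microvilli and use signalling proteins of the kind found in taste cells to sense the gut contents. In the small intestine they respond to parasites and to microbial metabolites by releasing the cytokine IL-25 and cysteinyl leukotrienes, which act on innate lymphoid cells. The IL-13 that these cells then make promotes the formation of further tuft cells and goblet cells. The transcription factor Pou2f3 is needed for the lineage.

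All 6 measured genes had higher levels in the graft, by 2-fold or more, and for 3 of them, Alox5ap, Rgs13 and Sh2d6, the difference was 4-fold or more. Among all 17305 genes, 1.93% were 2-fold or more above the colon level in the graft, 0.595% were 4-fold or more above it and 3.09% were 2-fold or more below it. A level filter asked for 5.48, the median of all gene values, on at least 1 array. All 6 genes passed it through their graft level, and only Sh2d6 also reached it on the colon array. Of the 9392 genes that passed, 333 were 2-fold or more above the colon level and 533 were 2-fold or more below it. The median difference of the 6 genes, graft minus colon on the log2 scale, was 1.97, and that of all genes was 0.00. The 6 measured differences ran from 1.23 to 2.64. By size of the measured difference the 6 genes ranked between 53 and 242 of all genes, and 5 of them were among the 200 with the largest positive difference. In bulk tissue such as this, fewer cells of a type and less RNA per cell cannot be told apart.

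Windows before the transcription starts of the members were searched for motifs of Pou2f3 and Spib, transcription factors used by tuft cells. The windows of Avil and Dclk1 are shown. Whether either factor has a part in the differences of the members was not tested. The RefSeq table of build GRCm38.p6 held windows for Dclk1, Trpm5, Avil, Rgs13, Sh2d6 and Ptgs1, and Alox5ap had no entry. The 250 bases before each start were searched on both strands for ATGCAAA, the core of the octamer that POU factors such as Pou2f3 recognise, and for GAGGAA, the core of the PU box recognised by Spib. Both motifs were chosen after the levels were known, and their matches did not overlap. The Avil window, chr10:127000459-127000708 on the plus strand, holds the octamer core at 2 places. It is the only one of the 7 windows searched that holds this core. Dclk1 has 2 starts in the table, with windows at chr3:55242114-55242363 and chr3:55461478-55461727 on the plus strand. Its single probe set is annotated with 20 transcript accessions, so the values do not show which start was used. The sequences run 5′ to 3′ and capitals mark the motif matches.

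Avil: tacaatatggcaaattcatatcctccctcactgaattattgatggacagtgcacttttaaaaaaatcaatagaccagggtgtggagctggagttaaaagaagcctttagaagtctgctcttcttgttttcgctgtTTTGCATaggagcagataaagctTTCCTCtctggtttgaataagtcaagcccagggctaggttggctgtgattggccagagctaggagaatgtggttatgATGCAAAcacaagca

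Dclk1 first start: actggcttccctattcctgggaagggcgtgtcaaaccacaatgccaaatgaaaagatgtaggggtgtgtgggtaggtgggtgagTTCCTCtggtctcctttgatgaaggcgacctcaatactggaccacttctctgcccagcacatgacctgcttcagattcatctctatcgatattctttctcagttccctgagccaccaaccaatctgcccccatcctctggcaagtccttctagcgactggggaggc

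Dclk1 second start: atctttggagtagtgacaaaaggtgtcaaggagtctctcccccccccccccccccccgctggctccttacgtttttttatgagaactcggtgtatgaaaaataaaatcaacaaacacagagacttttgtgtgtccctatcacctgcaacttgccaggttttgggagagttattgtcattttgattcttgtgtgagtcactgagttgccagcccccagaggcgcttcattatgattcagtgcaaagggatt

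In the Avil window the octamer core lies at bases 136 to 142, on the opposite strand, and at bases 236 to 242, on the same strand. The PU box core lies between them at bases 159 to 164, on the opposite strand. Of the 32851 windows in the table, 4.12% hold at least 1 octamer core and 0.25% hold 2 or more. Each share is for a single window, whereas 7 windows of the members were searched. The first Dclk1 window holds the PU box core at bases 85 to 90, on the opposite strand, and the second holds neither motif. The PU box core is found in 23.25% of all windows. The Ptgs1 window holds the PU box core once, and neither motif was found in the windows of Trpm5, Rgs13 and Sh2d6. A match of letters is not a binding site, and these arrays measured no binding.

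The table gives no detection call, so olfactory receptor genes, a large family with little known use in gut epithelium, were taken after the data were seen as a guide to low signal. The middle 90% of 387 such genes lay between 4.40 and 5.14 on the colon array and between 4.41 and 5.11 on the graft array. Dclk1, Alox5ap and Avil fell inside that range on the colon array, and Trpm5, Rgs13 and Sh2d6 lay above it. The highest olfactory receptor gene was at 6.57 on the colon array and at 6.18 on the graft array. All 6 tuft cell genes lay below the highest one on the colon array and above it on the graft array. Probe sets differ in their brightness for equal amounts of RNA, so this is a description of where the signals lie. Where the lower of a gene's 2 levels falls in the range of the olfactory receptor genes, that signal cannot be separated from background, and the measured fold may understate the difference by an unknown amount.

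Trpm5 and Rgs13 belong to signalling. Trpm5, the calcium-activated cation channel that depolarises taste and tuft cells after a stimulus, had a level of 6.54 on the graft array and 5.31 on the colon array. The difference of 1.23 is 2.35-fold and the smallest of the 6. Rgs13, a regulator that shortens G protein signals, was at 7.82 on the graft array and 5.32 on the colon array, a 5.65-fold difference. On the colon array both genes lay just below the array's median of 5.43, and on the graft array above its median of 5.44.

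Alox5ap encodes the protein that presents arachidonic acid to 5-lipoxygenase, the first step of leukotriene synthesis. It was at 7.73 on the graft array and 5.08 on the colon array, a measured difference of 6.25-fold against a colon signal in the olfactory receptor range. Ptgs1, the constitutive cyclooxygenase, would stand for the prostaglandin branch but has no value here.

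Dclk1 and Avil are tied to the cytoskeleton. Dclk1, a microtubule-associated kinase widely used as a tuft cell marker in the mouse intestine, was at 6.57 on the graft array and 4.91 on the colon array, a 3.15-fold difference. Avil, or advillin, an actin-binding relative of villin, was at 6.81 on the graft array and 5.08 on the colon array, a 3.32-fold difference. Both were low on the colon array, in the olfactory receptor range and not far above the array's 20th percentile of 4.74. Sh2d6, an adaptor with an SH2 domain, was at 7.97 on the graft array and 5.76 on the colon array, a 4.63-fold difference. It was the only one of the 6 genes above the median of the colon array.

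**Figure D1:**
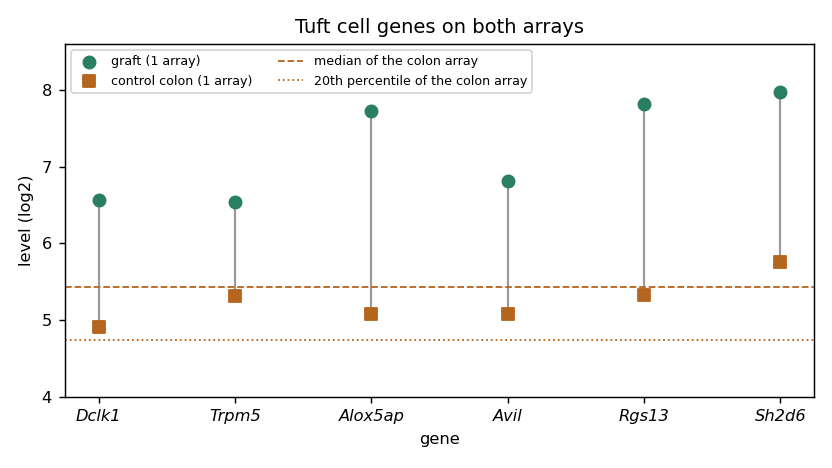
Levels on the log2 scale of the 6 measured tuft cell genes, with circles for the graft array and squares for the control colon array, and lines for the colon array's median (dashed) and 20th percentile (dotted). Every circle lies above its square, and 5 of the 6 squares lie between the 20th percentile of 4.74 and the median of 5.43.

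The smallest difference, 1.23, can be set beside the technical spread in the table. In 586 genes the best and second best probe sets by signal both reached 5.48, the median of all gene values, on at least 1 array. Over these genes, the gap between the graft minus colon differences of both probe sets had an SD of 0.48. Over 108 genes whose probe sets were about as bright as the 6 tuft cell genes, that SD was 0.55. Of the 387 olfactory receptor genes, 0 were 2-fold apart in either direction. Most of them had low signal on both arrays, where a 2-fold difference could hardly arise. That count therefore gives no spread at the graft levels of the 6 genes, which ran from 6.54 to 7.97. Of the 5171 genes with a colon level between 4.91 and 5.76, the range of the 6 genes, 2.53% were higher in the graft by 2-fold or more. These figures leave out variation between animals and between amplifications.

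**Figure D2:**
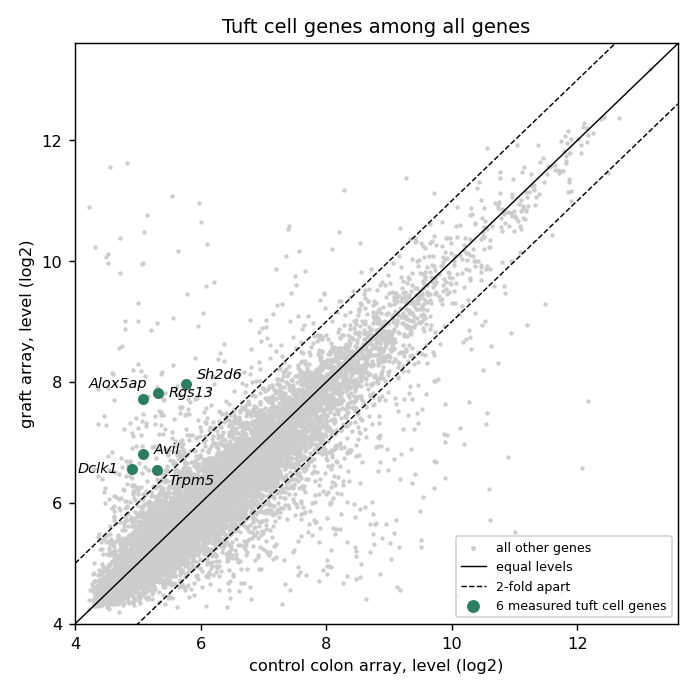
Each point is a gene, with its log2 level on the control colon array on the horizontal axis and on the graft array on the vertical axis; the solid line marks equal levels and the dashed lines 2-fold differences. The 6 tuft cell genes lie above the upper dashed line, at the left, where colon levels run from 4.91 to 5.76.

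Other genes of tuft cells were set in 7 lists by role, also with earlier results of these data known. Together these lists hold 72 genes besides the 7, of which 68 were measured, 66 of them with a single probe set. At least 2-fold higher in the graft were 13 of the 68, or 19.1%, and 2 were at least 2-fold lower, or 2.94%. Their median difference was 0.45. For 20 of the 68 genes the level stayed below that median of 5.48 on both arrays, so that a difference would be hard to see. Of the 13 higher genes, 6 had a colon signal in the olfactory receptor range or below it, namely Alox5, Pou2f3, Spib, Sh2d7, Fyb and Bmx, and their folds carry the limit given above. Vil1 and Krt18 also stand in the list of general epithelial genes used below.

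The taste-type signalling list runs from receptors through G protein subunits and phospholipases to the calcium release channels. Besides Trpm5 and Rgs13 it held 14 measured genes, of which 0 were 2-fold apart, with a median of 0.19. Among all genes, 1.93% were 2-fold or more higher in the graft and 3.09% were lower. Of the 14, 8 stayed below the median level on both arrays, where a difference would be hard to see. The other 6 had differences from 0.27 to 0.69. Gnat3, the alpha subunit of gustducin, was at 4.54 on the graft array and 4.45 on the colon array. Plcb2, the phospholipase upstream of Trpm5 in taste cells, was at 5.23 and 5.20. Both lay below the median level on both arrays. The sweet and umami receptor subunit Tas1r3 had a difference of -0.01. Trpm5 and Rgs13 were therefore the only genes of this list that were 2-fold apart.

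Besides Alox5ap, the eicosanoid list had 7 measured genes, of which 2 were higher in the graft by 2-fold or more and 0 were lower, with a median of 0.67. Alox5, the 5-lipoxygenase that works with the Alox5ap protein, was at 6.70 on the graft array and 4.82 on the colon array, a 3.68-fold difference. Hpgds, the synthase of prostaglandin D, was at 6.48 on the graft array and 5.42 on the colon array, a 2.09-fold difference. Ltc4s, which makes the cysteinyl leukotriene, was at 6.01 and 5.30, a difference of 0.72 that did not reach 2-fold. Ptgs2, the inducible relative of Ptgs1, had a difference of 0.67, with 5.82 on the graft array and 5.15 on the colon array. The differences of the other 3 genes were 0.07 for Ptges, a prostaglandin E synthase, 0.05 for the phospholipase Pla2g4a and 0.03 for the leukotriene A hydrolase Lta4h.

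The lineage's transcription factors were in part higher. Of 8 genes, 2 were higher in the graft by 2-fold or more and 0 were lower, with a median of 0.40. Pou2f3 was at 6.21 on the graft array and 5.00 on the colon array, a 2.30-fold difference. Spib, an ETS family factor also used by M cells and B cells, was at 6.44 on the graft array and 4.88 on the colon array, a 2.96-fold difference. Neither of these genes reached the 75th percentile of all gene values, 6.53, on either array. Gfi1b, a zinc finger repressor that marks tuft cells among gut epithelial cells, had a difference of 0.33, with 6.10 on the graft array and 5.77 on the colon array. Etv1 had a difference of -0.13.

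Adaptors and kinases that tuft cells share with blood cells formed the next list. Of 13 measured besides Sh2d6, 5 were higher in the graft by 2-fold or more and 0 were lower, and the median was 0.75. The adaptor Fyb was at 7.27 on the graft array and 5.13 on the colon array, a 4.42-fold difference. Rac2, a small GTPase, was at 7.29 and 5.37, or 3.77-fold higher in the graft. Sh2d7, a relative of Sh2d6, was 2.61-fold higher in the graft, the endoplasmic reticulum protein Lrmp 2.45-fold and the TEC family kinase Bmx 2.15-fold. All of the 13 had a positive difference, the smallest being 0.06.

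In the cytoskeleton list, 0 of 6 other measured genes were 2-fold apart, and the median was 0.56. Krt18, the keratin that is abundant in tuft cells, had a difference of 0.91, and ezrin, Ezr, of -0.17. In the list for the type 2 immune circuit, 1 of 8 genes was higher in the graft by 2-fold or more, 0 were lower, and the median was 0.12. That gene was Il4ra, the receptor chain shared by IL-4 and IL-13, at 7.02 on the graft array and 5.59 on the colon array, a 2.69-fold difference. Its partner chain Il13ra1 was at 8.54 on the graft array and 8.61 on the colon array. Il25, the cytokine released by tuft cells, was at 5.26 and 5.09, below the median level on both arrays. The epithelial cytokine Tslp had a difference of -0.11.

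The remaining signature genes went both ways. Of 12 measured genes, 3 were higher in the graft by 2-fold or more and 2 were lower, with a median of 0.36. The keratin Krt23 was 3.08-fold higher in the graft, the tetraspanin Tspan6 2.55-fold and Bpgm, an enzyme of red cell glycolysis, 2.19-fold. Smpx, known as a muscle protein, was at 5.57 on the graft array and 8.16 on the colon array, a 5.99-fold difference in the direction opposite to the 6 tuft cell genes. Inpp5j, an inositol phosphatase, was at 5.84 on the graft array and 7.20 on the colon array, or 2.58-fold lower in the graft.

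**Figure D3:**
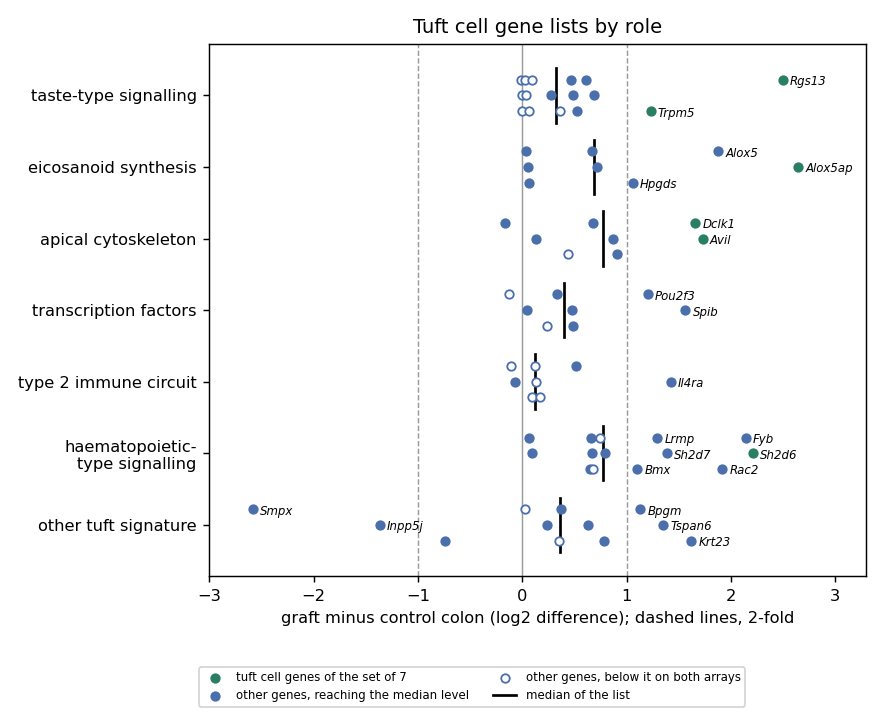
Log2 differences, graft minus control colon, of the genes in 7 lists of tuft cell genes by role, with green points for the tuft cell genes of the set of 7, open points for genes below the median level on both arrays, and black bars for list medians. Medians over all genes of a list lie between 0.12 and 0.77, and Smpx and Inpp5j lie left of the lower dashed line at 2-fold.

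Near relatives of the 6 genes were compared on the same arrays. In the doublecortin-like kinase family, Dclk2 had a difference of 0.05 and Dclk3 of -0.18, and their levels on both arrays lay between 4.72 and 4.90. Among 7 measured TRPM channels, Trpm5 was the only one higher in the graft by 2-fold or more. Trpm4, the other calcium-activated monovalent cation channel of the family, had a difference of -0.07, at 6.51 on the graft array and 6.58 on the colon array. Trpm6, a magnesium channel of the colon, was at 4.86 on the graft array and 7.58 on the colon array, or 6.56-fold lower in the graft, where its signal was in the olfactory receptor range. Trpm2 had a difference of 0.07, and Trpm3, Trpm7 and Trpm8 had exactly equal values on both arrays, as did 12.1% of all probe sets.

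In the villin and gelsolin family, Avil and the capping protein Capg were higher in the graft by 2-fold or more, the latter 2.48-fold, at 6.79 against 5.48. Vil1, the villin of all brush borders, had a difference of 0.68, Svil of 0.67 and Gsn of 0.52. Scin and Flii had differences of -0.21 and -0.28, and Vill had equal values. Of 8 measured RGS genes of the R4 family, Rgs13 and Rgs5 were higher in the graft by 2-fold or more. Rgs5, best known from pericytes, was at 7.73 on the graft array and 5.91 on the colon array, a 3.52-fold difference. Rgs3 had a difference of 0.65, Rgs2 of 0.33 and Rgs1 of 0.24, and those of Rgs4, Rgs8 and Rgs16 lay between -0.02 and 0.03.

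Among 8 measured SH2D genes, Sh2d6 and Sh2d7 were higher in the graft by 2-fold or more and 0 were 2-fold lower. Sh2d4a had a difference of -0.45, Sh2d1a of 0.30 and Sh2d4b of 0.27, and Sh2d2a, Sh2d3c and Sh2d5 of at most 0.01. In the membrane protein family of Alox5ap and Ltc4s, Alox5ap was the only one of 6 genes that was 2-fold apart. The microsomal glutathione transferases Mgst2, Mgst1 and Mgst3 had differences of -0.97, -0.80 and -0.36, and Ptges of 0.07.

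**Figure D4:**
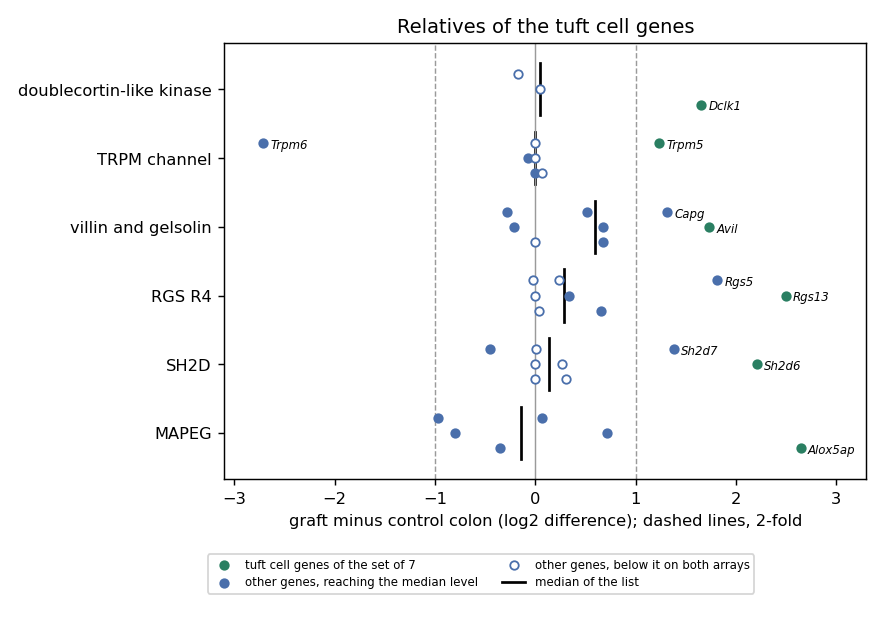
Log2 differences, graft minus control colon, of the 6 tuft cell genes (green) and their relatives in 6 gene families, with open points for genes below the median level on both arrays and black bars for family medians. In each family the tuft cell gene has the largest measured positive difference; Capg, Rgs5 and Sh2d7 also lie beyond 2-fold, and Trpm6 lies at -2.71.

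Several of these genes are also expressed outside the epithelium, among them Alox5ap, Alox5, Hpgds, Rgs13, Fyb, Rac2 and Lrmp in leukocytes and Avil in sensory neurons. Markers of such cells were therefore compared on the same arrays. Of 29 measured markers of mast cells, macrophages and lymphocytes, 0 were 2-fold apart, the median difference was 0.10 and the largest was 0.73, for C1qb. Among all genes, 1.93% were 2-fold or more higher in the graft and 3.09% were lower. Of these 29 genes, 21 lay below the median level on both arrays, where a difference would be hard to see: 7 of 8 mast cell, 5 of 11 macrophage and 9 of 10 lymphocyte genes. The low mast cell genes included the proteases Mcpt1, Mcpt2, Tpsb2, Tpsab1 and Cma1, and Kit had a difference of -0.35. The log2 of the summed mast cell signal was 7.99 on the graft array and 8.03 on the colon array, that of the 11 macrophage genes 9.41 and 9.27, and that of the 10 lymphocyte genes 8.36 and 8.19. The mast cell and lymphocyte sums come mostly from probe sets of low signal and could move little between the arrays. Ptprc, which is carried by all leukocytes and by some tuft cells, had a difference of 0.78.

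Neutrophil genes were the exception among the leukocyte lists. S100a8 and S100a9 were 4.04-fold and 2.56-fold higher in the graft, both from a colon signal in the olfactory receptor range, and Cxcr2 had a difference of 0.96. Ly6g, which has close relatives in the Ly6 family, was 42.7-fold lower, at 5.42 against 10.84. The summed neutrophil signal was 8.51 on the graft array and 10.97 on the colon array, and the lower graft sum rests on Ly6g alone. Of the 8 neutrophil genes, 6 had a positive difference, 1 had equal values and only Ly6g had a negative difference. The other neutrophil genes, Mpo, Elane, Csf3r and Ncf1, lay below the median level on both arrays. Of 9 neuron and glia genes, 8 of them below the median level on both arrays, 0 were 2-fold apart, and their summed signal was 8.22 on the graft array and 8.19 on the colon array. The part of these cells in the tuft cell gene differences was not tested.

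Markers of the epithelium in general, of goblet cells and of enteroendocrine cells were taken for comparison. Paneth cells, another secretory type, had no list here, so these values do not cover all secretory cells. Among all genes, 1.93% were 2-fold or more higher in the graft and 3.09% were lower, so a count of 0 in a short list says little. Of 13 general epithelial genes 0 were 2-fold apart, with a median of 0.36 and differences from -0.71 to 0.91. Of 6 goblet cell genes 0 were 2-fold apart, with a median of 0.14. Of 7 enteroendocrine genes, Cck was 2.68-fold higher in the graft, with a colon signal in the olfactory receptor range, 0 were 2-fold lower, and the median was -0.06. For 12 genes of fibroblasts and smooth muscle the median was -0.26, and Lum was 3.38-fold lower in the graft. Endothelial and platelet genes had a median of -0.07 over 9, of which 8 lay below the median level on both arrays. Whether the tuft cell genes differ from these lists by more than chance was not tested, since 1 array per group gives no test.

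**Figure D5:**
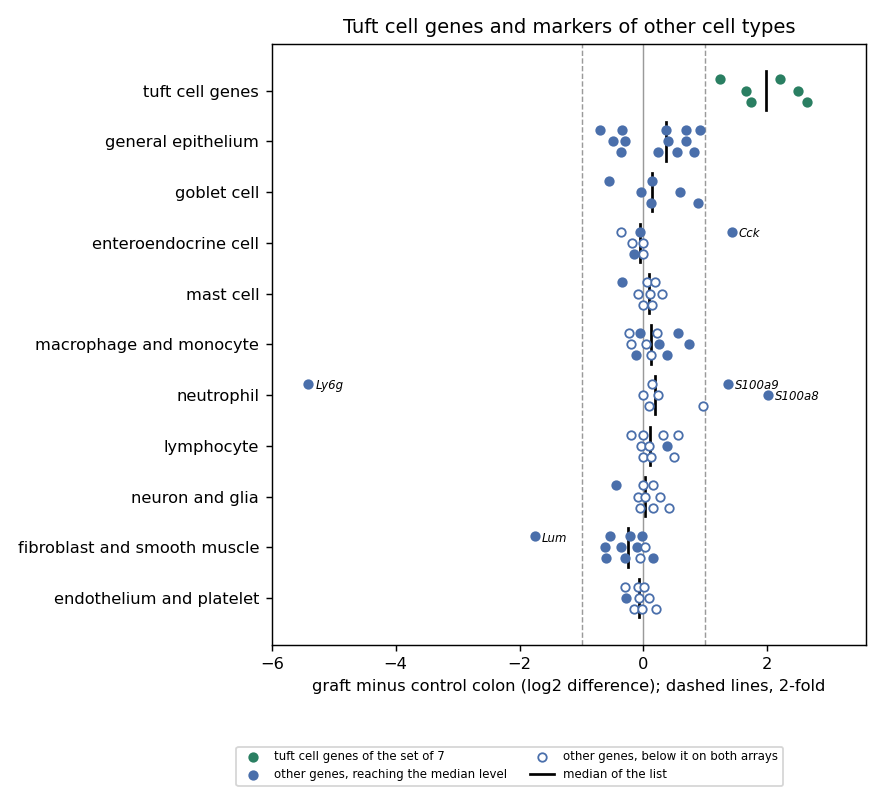
Log2 differences, graft minus control colon, of the 6 tuft cell genes (green) and of marker lists for 10 other cell types, with open points for genes below the median level on both arrays and black bars for medians. The tuft cell genes lie between 1.23 and 2.64, and outside them S100a8, S100a9, Cck, Lum and Ly6g are the points beyond 2-fold.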

How the data were processed

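Both arrays were single-channel arrays labelled with biotin, per the labels' protocols. The table deposited by the authors has 24074 probe sets, each with a log2 value from either array; software, background correction and normalization: not given in the sources used here. Its log2 scale was read from the deposited values, which run from 4.19 to 13.46. Probe sets were named through the platform annotation: 18904 had 1 gene symbol and were used, 1330 had several and 3840 had none. The brightest probe set by the mean of both arrays stood for a gene, with no further normalization. Differences are graft minus colon, counted over all measured genes at 2-fold and 4-fold. Counts were made with and without a filter that asks for 5.48, the median of all gene values, on at least 1 array. Python 3.11.15 with pandas 2.3.3 and NumPy 2.4.6 was used. The counting was first tested on simulated data. These had little noise and planted changes only in brighter genes, so the test does not cover signal near background. Sequences came from the RefSeq promoter table of GRCm38.p6. The number of arrays limits the precision.

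Named were all 7 tuft cell genes, list genes 2-fold apart, up to 2 genes per role list opposite to its median, Pou2f3, Gfi1b, Il25, Gnat3 and Plcb2, and every measured relative. Values of Krt18, Ptprc and eicosanoid genes not 2-fold apart and of markers not 2-fold apart were chosen after being seen. Members, lists and rules were chosen with earlier results of these data known. Alternatives were the mean of all probe sets or the dimmest, quantile normalization, median centring, other level filters and other folds.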

Additional observations from a re-analysis of the deposited data

How the results depend on the processing

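The count of 6 genes higher in the graft by 2-fold or more was 3 at a 4-fold threshold. At 1.5-fold it was 6 and could not have fallen. It was also 6 under both scalings, quantile normalization and centring of the arrays on their medians. The deposited arrays were already alike, with medians of 5.44 for the graft and 5.43 for colon, so neither scaling could change the count much. The level filters could not lower it, since each of the 6 genes passes them through its graft level. The choice of probe set could not change it, since each of the 6 genes has 1. Their differences moved by at most 0.04 with quantile normalization. Of the other tuft cell genes, 13 were 2-fold higher, and 8 with the filter at the 75th percentile, which keeps fewer genes. That filter left out Hpgds, Pou2f3, Spib, Sh2d7 and Bmx, so that the count fell from 2 to 0 for transcription factors, from 2 to 1 for eicosanoid genes and from 5 to 3 for adaptors and kinases. Of 195 genes in all lists, 29 were 2-fold apart, and the same 29 were so in the same direction under both scalings; 6 genes turned sign with quantile normalization, each with a difference of at most 0.06. These were Agr2, C1qc, Chgb, Col1a1, Sh2d3c and Vwf. No paired analysis was possible because each group has 1 array. Signal near background limits the colon values of Dclk1, Alox5ap, Avil and 6 of those 13 genes, and the graft value of Trpm6.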

Other observations

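Genes that act on the products of tuft cells were looked at after the other values had been seen, so they are given as values only. Of 11 measured receptors for leukotrienes and prostaglandins, 0 were 2-fold apart, with a median of 0.00. Ptger4, a prostaglandin E receptor, was at 7.26 on the graft array and 6.33 on the colon array, and Ltb4r1, a leukotriene B receptor, at 6.12 and 5.32. Cysltr1, a receptor for cysteinyl leukotrienes, had a difference of 0.19. Of 7 genes for breakdown and transport of these lipids, 2 were 2-fold or more lower in the graft than in colon and 0 were 2-fold higher. Among all genes, 3.09% were 2-fold or more lower. Slco2a1, the prostaglandin uptake transporter, was at 5.77 on the graft array and 8.45 on the colon array, a 6.44-fold difference. Hpgd, the enzyme that inactivates prostaglandins, was at 8.62 on the graft array and 9.81 on the colon array, a 2.27-fold difference. Ptgr1, of the same list as Hpgd, was at 7.56 on the graft array and 6.71 on the colon array, a positive difference of 0.85. Of the 7 measured synthesis genes besides Alox5ap, Alox5 and Hpgds were 3.68-fold and 2.09-fold higher in the graft. The rest of those 7 were not 2-fold apart. Whether synthesis and breakdown genes differ as groups was not tested.

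Of 8 measured type 2 cytokines and innate lymphoid cell genes, 0 were 2-fold apart and 7 lay below the median level on both arrays. The largest difference was 0.84, for Il33, at 5.73 on the graft array and 4.89 on the colon array. Il13, the cytokine that acts through Il4ra, was at 5.33 and 4.90. All 6 measured bitter taste receptor genes lay between 4.47 and 4.80 on both arrays, and the largest difference among them was 0.10.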
